A study of Mus musculus with 6 samples.

Results

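The splicing factors and RNA-binding proteins described here are 105 of 16381 gene entries in the authors' deposited table of the change on p63 excision in mouse squamous cell carcinoma. They were chosen by name: entries that start with SFRS, SRSF, HNRP, HNRNP, SNRP, SF3, PRPF or RBM, CLK or DDX followed by a digit (without DDX3Y and DDX58), and 9 entries added singly (CCNL, CCNL2, OGT, RNPC2, TRA2A and clone names of Srsf11, Luc7l3, Srsf7 and Tra2b). After old symbols were brought up to date they stood for 101 genes, 4 of them with 2 entries each. The members were chosen with earlier results of these data known. Gene expression had been measured on Illumina bead arrays in whole tumours, 3 p63-excised and 3 p63-intact. The tumour cells of both groups carried p53+/-, p63L/L and K14-CreER on a mixed c57BL/6 - CD1 background, had been transformed with DMBA, and grew as orthotopic grafts in Nude mice for 13 days. p63-excised tumours came from hosts given tamoxifen on 5 days, which activates a Cre recombinase made under the keratin 14 promoter, and p63-intact tumours from hosts given vehicle. Harvest followed 1 to 3 days later. Drug and excision cannot be told apart in this design. Cre acts only in keratin 14-expressing tumour cells, while RNA came from the whole tumour with its host vessels, stroma and the myeloid and natural killer cells that Nude mice keep. The labels do not say whether the 3 tumours of a group came from separate mice or primary tumours, so the p-values speak only to variation among these 6 arrays, technical variation included.

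Pre-mRNA splicing removes introns in the spliceosome, which is assembled from small nuclear ribonucleoproteins (snRNPs) and many helper proteins. SR proteins, rich in arginine and serine, mostly favour the use of nearby exons, and hnRNP proteins often oppose it. CLK kinases phosphorylate SR proteins and so release them from nuclear speckles. Many of these genes control their own output, through retained introns or exons that send the transcript to decay, and epithelial cells rely on particular RNA-binding proteins for their splice forms.

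In p63-excised tumours Hnrnpdl, the Srsf11 clone entry and Clk4 fell and Rbm42 rose, and the other 101 members did not pass the test (p-values of the authors' deposited table, Benjamini-Hochberg adjusted with each of the 45281 probes on the array taken as a test). By this rule 1.16% of all listed entries were called, 0.659% as higher and 0.501% as lower, beside 1 member higher and 3 lower. With the listed entries alone counted as tests, 10 members passed, 4 higher and 6 lower, where 2.97% of all entries passed, 1.57% higher and 1.39% lower. Of the 105 members in the authors' deposited table, 66 (62.9%) were lower in p63-excised tumours and 39 higher, where 49.0% of all listed entries were lower, with a median log2 change of -0.10, against a median of 0.05 over all listed entries. The table lists entries with p up to 0.462 only, so genes of these families above that p were not analysed here and the 105 are not a full roll of splicing factors. It gives a change and a mean level per entry but no value per tumour, and the probe files carry no gene names, so values for single tumours are not shown and whether the groups overlap for a member is not known. The scaling behind these changes cannot be varied either, so the sign of a small change, and counts of members above and below 0, hold for the authors' scaling only.

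Hnrnpdl, an hnRNP protein related to Hnrnpd that binds AU-rich RNA, had the deepest fall among the members. Its log2 change was -1.36 ± 0.11 in the authors' deposited table (SE taken as the change over t, adjusted p = 0.0128), 2.57-fold lower in p63-excised tumours. Only 27 listed entries had a smaller p than Hnrnpdl. Clk4, a kinase of SR proteins, fell by 0.98 on the log2 scale with an SE of 0.13 in the authors' deposited table (adjusted p = 0.0465), which is 1.97-fold. Srsf11, an SR-related protein found with the factor that recognises the 3′ splice site, fell by 0.93 with an SE of 0.10 in the clone-named of its entries in the authors' deposited table (adjusted p = 0.0249). Rbm42, which holds an RNA recognition motif and binds hnRNP K, rose by 0.58 on the log2 scale with an SE of 0.05 in the authors' deposited table (adjusted p = 0.0151), a 1.5-fold difference. Clk4 stands just inside the threshold. Hnrnpa2b1 stands just outside it in the authors' deposited table, where its adjusted p was 0.066.

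**Figure D1:**
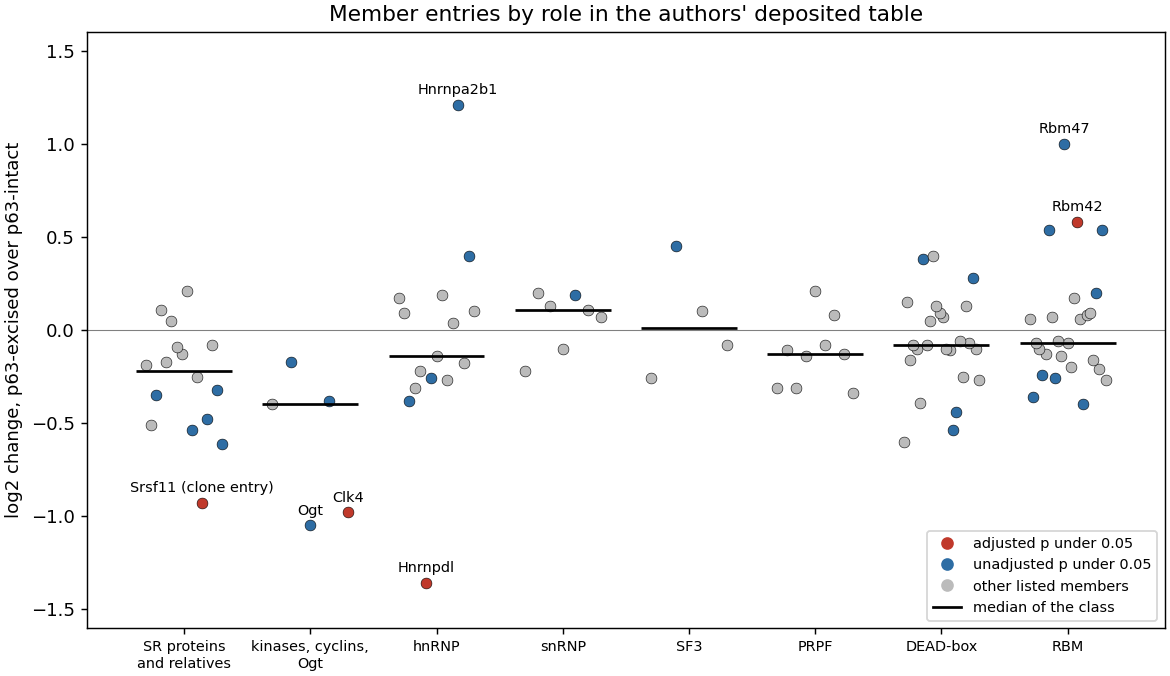
Log2 change of each of the 105 members (p63-excised over p63-intact, vertical axis) by role class, from the authors' deposited table, with red for adjusted p under 0.05, blue for unadjusted p under 0.05, grey for the rest and a bar at the median of each class. All 5 kinase, cyclin and Ogt entries and 13 of 16 SR entries lie below 0, while the classes of snRNP and SF3 proteins lie near 0.

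The promoters of the 4 called genes are shown because they are the only members whose change passed the test. They come from RefSeq (GRCm38.p6, 250 bases before to 50 after the annotated start, 5′ to 3′), which held promoters for 85 of the 101 member genes. For Srsf11 the first of 2 listed starts is given. Tra2a is added because it shares a motif with Clk4. Capitals mark GGGCGG (the GC box) and TGACGTCA (the cyclic AMP response element), each on either strand.
Hnrnpdl (chr5:100039173-100039472, minus strand): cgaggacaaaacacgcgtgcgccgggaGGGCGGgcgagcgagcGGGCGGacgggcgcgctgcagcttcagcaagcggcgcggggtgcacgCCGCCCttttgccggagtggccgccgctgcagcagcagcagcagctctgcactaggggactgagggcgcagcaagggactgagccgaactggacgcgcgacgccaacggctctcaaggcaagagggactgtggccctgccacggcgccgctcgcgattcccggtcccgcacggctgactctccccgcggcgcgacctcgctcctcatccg
Clk4 (chr11:51262864-51263163, plus strand): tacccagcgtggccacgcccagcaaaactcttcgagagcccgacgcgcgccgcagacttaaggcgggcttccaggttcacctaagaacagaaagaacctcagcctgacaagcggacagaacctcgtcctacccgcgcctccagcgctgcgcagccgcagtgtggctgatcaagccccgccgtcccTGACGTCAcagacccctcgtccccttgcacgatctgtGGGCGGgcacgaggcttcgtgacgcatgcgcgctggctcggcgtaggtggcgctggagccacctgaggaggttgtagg
Srsf11 (chr3:158036557-158036856, minus strand): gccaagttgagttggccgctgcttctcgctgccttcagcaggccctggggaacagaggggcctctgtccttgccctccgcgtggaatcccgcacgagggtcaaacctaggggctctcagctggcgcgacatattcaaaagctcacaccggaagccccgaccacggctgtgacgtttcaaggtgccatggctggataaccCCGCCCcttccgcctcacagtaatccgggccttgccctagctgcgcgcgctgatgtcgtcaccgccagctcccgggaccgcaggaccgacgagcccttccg
Rbm42 (chr7:30650179-30650478, minus strand): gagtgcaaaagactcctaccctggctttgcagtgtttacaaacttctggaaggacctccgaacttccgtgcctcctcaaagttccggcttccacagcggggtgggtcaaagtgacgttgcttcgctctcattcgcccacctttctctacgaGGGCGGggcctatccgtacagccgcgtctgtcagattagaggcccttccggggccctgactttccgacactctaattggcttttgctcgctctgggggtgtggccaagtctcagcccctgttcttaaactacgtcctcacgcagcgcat
Tra2a (chr6:49264003-49264302, minus strand): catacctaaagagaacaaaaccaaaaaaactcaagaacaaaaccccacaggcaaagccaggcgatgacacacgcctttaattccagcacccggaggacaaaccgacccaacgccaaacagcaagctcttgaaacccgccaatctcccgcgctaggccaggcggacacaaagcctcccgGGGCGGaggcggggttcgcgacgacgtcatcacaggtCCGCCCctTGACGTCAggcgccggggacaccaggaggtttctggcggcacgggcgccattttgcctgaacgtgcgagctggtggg
These are promoters rich in CpG, with 42 CpG in Hnrnpdl, 30 in Clk4, 25 in Srsf11, 18 in Rbm42 and 25 in Tra2a, against a median of 25 in the 108 member promoters and 7 in all 32851 promoters. In all 11 patterns were searched, on both strands, and those whose letters are marked, as well as Tra2a, were picked after the matches were seen. GGGCGG occurred in 68 of 108 member promoters and in 35.7% of all promoters. TGACGTCA was in 6.48% of member promoters (6 genes: Ccnl1, Clk4, Ddx49, Ddx51, Snrpa and Tra2a) and 1.79% of all promoters. CCGGAAG, the core bound by ETS factors, was in 25.0% of member promoters and 8.86% of all, and CCAAT in 43.5% and 37.4%. TATAAA was in 8.33% of member promoters and 13.6% of all. The p53-family half-site was in 1.85% of member promoters, those of Ddx19b and Snrpe, and in 8.36% of all promoters, and in none of the 5 windows printed. Of the other patterns, CACGTG (the E-box) was in 12.0% of member promoters and 7.15% of all, CATG in 39.8% and 61.1%, the AP-1 site (TGACTCA or TGAGTCA) in 0.926% and 5.2%, the ZBTB33 element in 2.78% and 0.466%, and the YY1 element in 0.926% and 0.633%. A match is a run of letters and not a shown binding site, and the motifs can overlap.

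SR proteins and their relatives were mostly below 0. Of 16 entries in the authors' deposited table (14 genes), 13 were lower in p63-excised tumours, with a median log2 change of -0.22. The Srsf11 clone entry fell and 15 did not pass. An unadjusted p under 0.05 was found for 6 entries, all lower, a mark that 10.6% of all listed entries reached in that direction. At mean log2 levels of at least 5.5 it was reached by 5 of 9, all lower, where 21.3% of all such entries did. Among the 6, the Srsf11 clone entry, Tra2a and Luc7l3 were added singly, with earlier results known, so the count may follow in part from that choice. Tra2a, which binds purine-rich exonic enhancers, was at -0.48 in the authors' deposited table (adjusted p = 0.136, 95% interval -0.70 to -0.26). Srsf6, a classical SR protein, was at -0.54 in the authors' deposited table (adjusted p = 0.293, 95% interval -0.87 to -0.21). Luc7l3, a relative of a yeast U1 snRNP protein, was at -0.61 in the authors' deposited table (adjusted p = 0.3, 95% interval -0.99 to -0.23). These 3 intervals lie below 0 one at a time but do not allow for the number of entries tested. The 12 other entries of the class ran from -0.51 to 0.21 in the authors' deposited table, 3 of them above 0.

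A pair of SR genes was listed with 2 entries each, and the entries of Srsf11 point in different directions. Its clone entry was at -0.93, as above, while the entry SFRS11 was at 0.21 in the authors' deposited table (p = 0.332, 95% interval -0.27 to 0.69). For Srsf7, an SR protein that also acts in RNA export, the entries were at -0.51 and -0.25 in the authors' deposited table (p = 0.0774 and 0.18). Hnrnpa2b1 had one entry at 1.21 and another at 0.09 in the authors' deposited table (p = 0.000343 and 0.226), the second at a mean log2 level of 4.83, near the lowest listed level of 4.62. The entries of Hnrnpc, an hnRNP core protein, were at -0.27 and -0.18 in the authors' deposited table (p = 0.371 and 0.432). The sources used here do not say which transcript form each entry reads, and differences between entries of a gene were not tested. Member genes also had second entries that the choice by name does not reach. Ccnl1 had one at -0.12 (p = 0.344, mean log2 level 5.22), beside -0.38 for its member entry, and Rbfox2 one at 0.09 (p = 0.35, mean log2 level 4.85), beside 0.54, in the authors' deposited table. These second entries were named after their values were seen.

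The member entries for enzymes and cyclins that act on SR proteins were all lower. All 5 entries of this class in the authors' deposited table had negative log2 changes, with a median of -0.40. Clk4 fell and 4 did not pass. At an unadjusted p under 0.05 there were 4 of 5, all lower, where 10.6% of all listed entries were lower. At mean log2 levels of at least 5.5 there were 2 of 3, where 21.3% of all such entries were lower at that p. The entries of Ccnl1, Ccnl2 and Ogt were added singly, with earlier results known, so these counts may follow in part from that choice. Kinases of the neighbouring speckle and SR-related list lay on both sides of 0 in the authors' deposited table. Dyrk3, Cdk11b and Dyrk1b were at 0.46, 0.28 and 0.09, and Srpk1, Srpk2 and Srpk3 at -0.23, -0.42 and -0.14. None of these kinases passed the adjusted test, and they were named after their values were seen. Ogt, which attaches N-acetylglucosamine to nuclear and cytosolic proteins, was at -1.05 ± 0.17 in the authors' deposited table (SE, adjusted p = 0.087), 2.08-fold lower. Ccnl1, a cyclin that partners a speckle kinase, was at -0.38 in the authors' deposited table (adjusted p = 0.49, 95% interval -0.68 to -0.08). Its relative Ccnl2 was at -0.17 in the authors' deposited table (adjusted p = 0.571), at a mean log2 level of 4.86, near the lowest listed level of 4.62. Clk1, the nearest relative of Clk4 in the list, was at -0.40 in the authors' deposited table (p = 0.062, 95% interval -0.83 to 0.03); it was named after its value was seen.

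**Figure D2:**
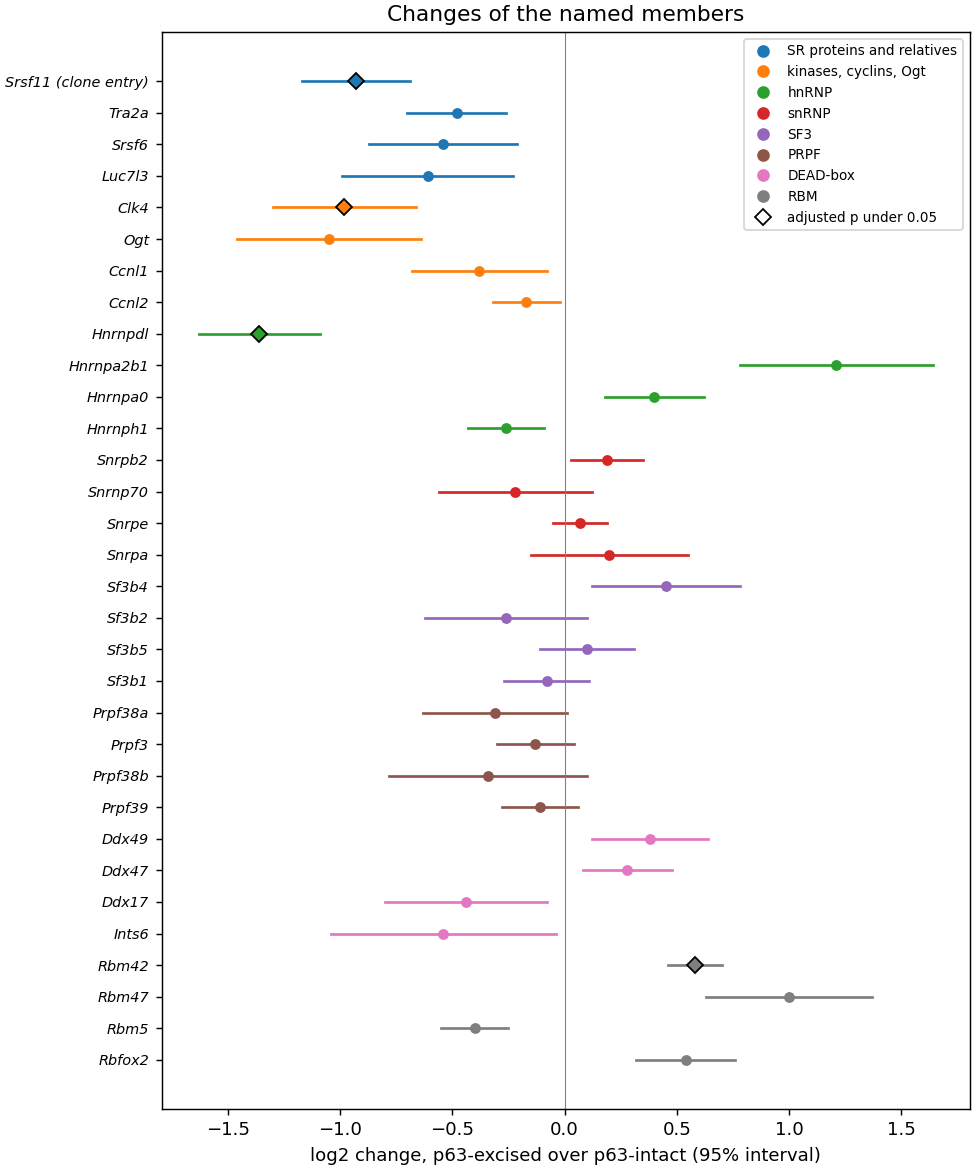
Log2 change with its 95% interval (p63-excised over p63-intact, horizontal axis) for the 32 members named by rule, computed from the change and t of the authors' deposited table and coloured by role class, with diamonds for adjusted p under 0.05. Srsf11 (clone entry), Clk4 and Hnrnpdl lie to the left of 0 and Rbm42 to the right, and all 4 PRPF intervals include 0.

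hnRNP proteins lay on both sides of 0. Of 15 entries in the authors' deposited table (13 genes), 8 were lower and 7 higher, with a median log2 change of -0.14, and only Hnrnpdl passed. At mean log2 levels of at least 5.5, 8 of 10 were lower, with a median of -0.24, where 52.0% of all such entries were lower. Hnrnpa2b1, which binds RNA in splicing and transport, was at 1.21 ± 0.18 in the authors' deposited table (SE, adjusted p = 0.066), 2.31-fold higher and the largest positive change among the members. Hnrnpa0, a binder of AU-rich RNA, was at 0.40 in the authors' deposited table (adjusted p = 0.229, 95% interval 0.18 to 0.62). Hnrnph1, which binds runs of G, was at -0.26 in the authors' deposited table (adjusted p = 0.322, 95% interval -0.43 to -0.09). The 11 other hnRNP entries ran from -0.38 to 0.19 in the authors' deposited table, and 5 of these had a mean log2 level under 5.5. In all, 5 hnRNP entries, 2 higher and 3 lower, had, in the authors' deposited table, an unadjusted p under 0.05. Of all listed entries, 9.31% were higher and 10.6% lower at that p. At mean log2 levels of at least 5.5 the hnRNP entries with that p were 5 of 10, against 42.9% of all such entries.

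No entry of the snRNPs, the core particles of the spliceosome, passed among 7 in the authors' deposited table. Of these, 5 were above 0, with a range of -0.22 to 0.20. An unadjusted p under 0.05 was reached by 19.9% of all listed entries and by 1 of these 7. That entry, Snrpb2 of the U2 snRNP, was at 0.19 in the authors' deposited table (adjusted p = 0.526, 95% interval 0.03 to 0.35). Snrnp70 and Snrpa, both U1 proteins, were at -0.22 and 0.20 in the authors' deposited table (95% intervals -0.56 to 0.12 and -0.15 to 0.55). Snrpe, a member of the Sm ring, was at 0.07 in the authors' deposited table (95% interval -0.05 to 0.19). Of 4 SF3 entries, which belong to the U2 complex at the branch site, none passed in the authors' deposited table. Sf3b4 was at 0.45 in the authors' deposited table (adjusted p = 0.431, 95% interval 0.12 to 0.78). Sf3b2, Sf3b5 and Sf3b1 were at -0.26, 0.10 and -0.08 in the authors' deposited table (95% intervals -0.62 to 0.10, -0.11 to 0.31 and -0.27 to 0.11).

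PRPF proteins are named after yeast splicing mutants and work in the tri-snRNP and at activation. They had 7 of 9 entries below 0 in the authors' deposited table, with a median log2 change of -0.13, where 49.0% of all listed entries were lower. An unadjusted p under 0.05 was reached by 0 of the 9, against 19.9% of all listed entries. At mean log2 levels of at least 5.5 it was reached by 0 of 5, against 42.9% of all such entries. Prpf38a and Prpf38b, which are relatives of a yeast tri-snRNP protein, were at -0.31 and -0.34 in the authors' deposited table (p = 0.0559 and 0.108). Prpf3, a U4/U6 protein, was at -0.13 and Prpf39, related to a yeast U1 protein, at -0.11 in the authors' deposited table (p = 0.108 and 0.161). The intervals of all 4 reach past 0, from -0.78 at the lowest bound to 0.10 at the highest in the authors' deposited table, so falls of moderate size are not excluded by these data.

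No DEAD-box helicase passed among 24 entries in the authors' deposited table, with 15 lower, a range of -0.60 to 0.40 and a median log2 change of -0.08. Ddx49 and Ddx47, whose yeast relatives act in ribosomal RNA processing, were in the authors' deposited table at 0.38 and 0.28 (adjusted p = 0.382 and 0.414). Ddx17, a coregulator of transcription and splicing, was at -0.44 in the authors' deposited table (adjusted p = 0.503, 95% interval -0.80 to -0.08). The entry DDX26 stands for Ints6, a subunit of the Integrator complex rather than a splicing factor, and was at -0.54 in the authors' deposited table (adjusted p = 0.617). These 4 were the entries of the class with an unadjusted p under 0.05, 2 in each direction. They were 4 of 24, where 19.9% of all listed entries reached that p. At mean log2 levels of at least 5.5 they were 4 of 12, against 42.9% of all such entries. Dim entries were common in this class: 12 of its 20 other entries had a mean log2 level under 5.5.

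RBM proteins, grouped here only by their deposited names, were spread to both sides. The entry RBM13 stands for Mak16, and whether each entry holds an RNA recognition motif was not checked. Of 25 entries in the authors' deposited table, 14 were lower and 11 higher, with Rbm42 passing. At an unadjusted p under 0.05 there were 9, 5 higher and 4 lower, where 9.31% of all listed entries were higher and 10.6% lower. At mean log2 levels of at least 5.5 there were 5 of 12, against 42.9% of all such entries. Rbm47, an RNA-binding protein of epithelia that takes part in C-to-U editing, was at 1.00 ± 0.16 in the authors' deposited table (SE, adjusted p = 0.075), 2.01-fold higher. Rbfox2, deposited as RBM9 and a regulator of tissue-specific exons, was at 0.54 in the authors' deposited table (adjusted p = 0.095, 95% interval 0.32 to 0.76). Rbm5, which regulates the splicing of apoptosis genes, was at -0.40 ± 0.06 in the authors' deposited table (SE, adjusted p = 0.0757). The 21 other RBM entries ran from -0.36 to 0.54 in the authors' deposited table, 13 of them at mean log2 levels under 5.5.

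Changes of moderate size were spread over several classes. Log2 changes of at least 0.5 in either direction were found for 14 members of the authors' deposited table, 9 lower and 5 higher. Of all 16381 listed entries, 1299 changed by that much, 647 lower and 652 higher. The 5 higher members were Hnrnpa2b1 and 4 RBM entries in the authors' deposited table. Among the 9 lower ones in the authors' deposited table, 4 were SR entries, 2 were Clk4 and Ogt and 1 was Hnrnpdl. The other 2 were of the DEAD-box class, Ddx21 and the entry DDX26, which stands for Ints6. None of the 14 was below a mean log2 level of 5.5. At or above that level they were 14 of 59 members, against 1140 of all 4269 such entries, 540 lower and 600 higher.

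Level bears on how these counts compare with the rest of the array. In the authors' deposited table, 59 of 105 members had a mean log2 level of at least 5.5, against 4269 of all 16381 entries. At an unadjusted p under 0.05 there were 30 members, 28.6%, against 19.9% of all listed entries. Among entries at or above 5.5 there were 22 of 59 members, 37.3%, against 42.9% of all. Members called lower at that p made up 22.0% of the 59, against 21.3%, and those higher 15.3%, against 21.7% in the authors' deposited table. Over all levels, members higher at that p were 11 of 105, against 9.31% of all entries. For the adjusted rule the 4 called members were 6.78% of the 59, against 3.87% (1 higher, where 2.37% of all such entries were, and 3 lower, where 1.5% were). With listed entries alone as tests the 10 members were 16.9% of the 59, against 9.44% (5.32% higher and 4.12% lower). The reading at an unadjusted p under 0.05 depended on the minimum level. At levels of at least 6 there were 20 of 41 members, 48.8%, against 43.7% of all entries, with 26.8% of members lower, against 21.4%, and 22.0% higher, against 22.3% in the authors' deposited table. At or above 5.5, 67.8% of members and 52.0% of all entries were lower in the authors' deposited table. The median log2 change there was -0.19 for members and -0.10 for all entries of the authors' deposited table.

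**Figure D3:**
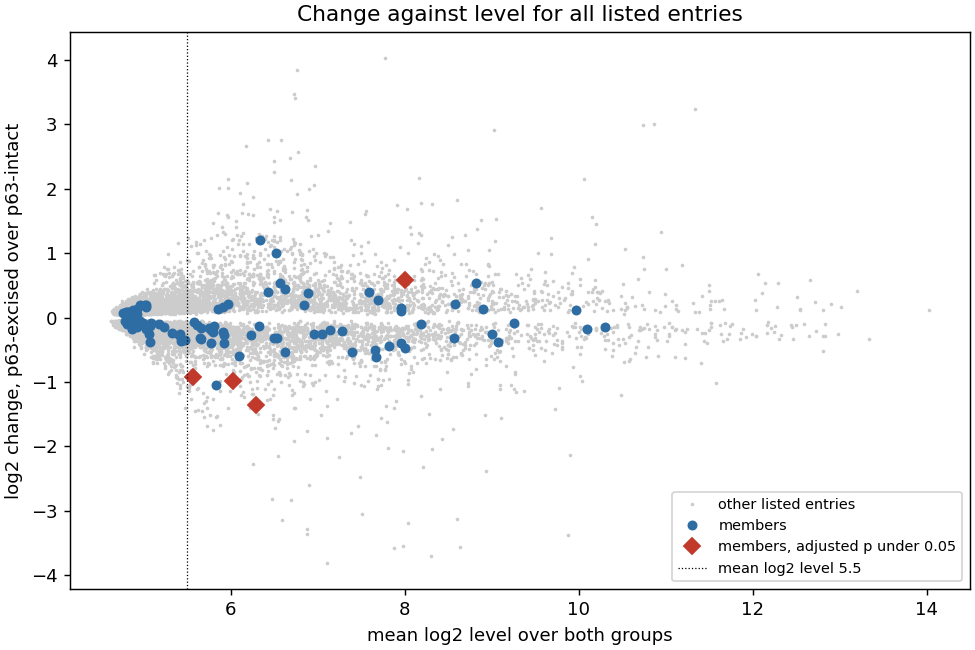
Log2 change (p63-excised over p63-intact, vertical axis) against mean log2 level over both groups (horizontal axis) for all 16381 listed entries in grey and the 105 members in blue, with called members as red diamonds; the dotted line is a level of 5.5. Members below the line lie between -0.38 and 0.20, and the empty band around 0 is where p exceeds 0.462.

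**Figure D4:**
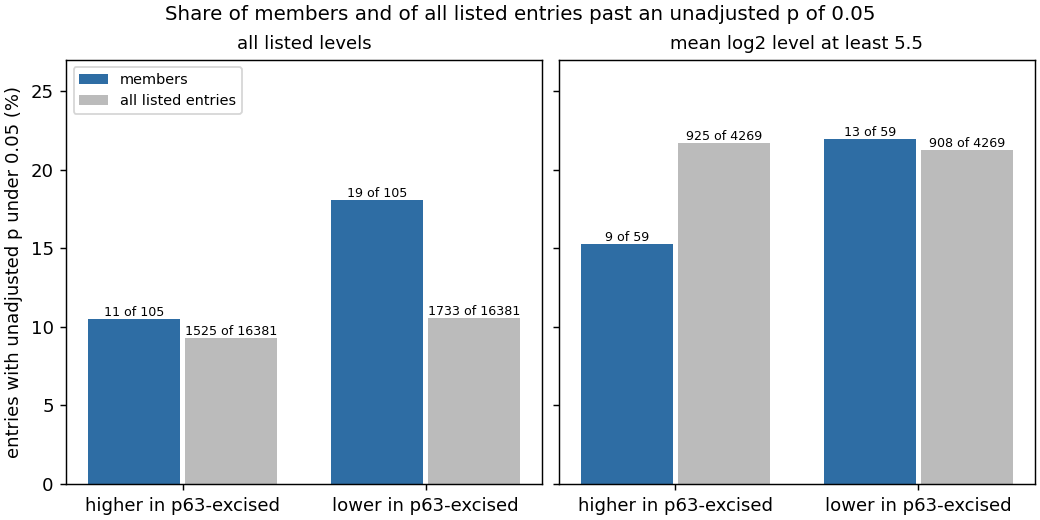
Share of entries with an unadjusted p under 0.05 (vertical axis, percent) that were higher or lower in p63-excised tumours, for members in blue and all listed entries in grey, over all levels on the left and at mean log2 levels of at least 5.5 on the right. The members' excess of lower entries on the left, 18.1% against 10.6%, is 22.0% against 21.3% on the right (at levels of at least 6, not drawn, it is 26.8% against 21.4%).

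Other genes of RNA processing were taken from 5 lists of 234 symbols. Member entries were left out of them, and 154 other entries were listed in the authors' deposited table, 2 of which are further entries of member genes (Ccnl1 and Rbfox2), 95 lower and 59 higher, with a median log2 change of -0.12. Past the adjusted threshold were 2 entries, 1 of them Pnisr, where 1.16% of all listed entries passed. An unadjusted p under 0.05 was found for 49 entries, 31.8%, against 19.9% of all listed entries. Of the 49, 36 were lower and 13 higher, where 10.6% of all entries were lower and 9.31% higher at that p. The lists were brighter, with median log2 levels of 5.655 to 6.415 against 4.94 over all entries. At levels of at least 5.5, 42.9% of all entries reached that p, and the lists were not counted at that level. Pnisr, a serine- and arginine-rich speckle protein that binds pinin, fell by 1.19 with an SE of 0.06 in its entry 5730406M06RIK of the authors' deposited table (adjusted p = 0.00683).

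Speckle and SR-related genes had 17 of 22 entries below 0 in the authors' deposited table, with a median log2 change of -0.23, Pnisr passing and 21 not. Scaf1, an SR-related factor tied to RNA polymerase, was in the authors' deposited table at 0.61 (adjusted p = 0.258), and the deepest value of the list, named after its value was seen, was the paraspeckle RNA Neat1 at -1.56 ± 0.46 in the authors' deposited table (SE, adjusted p = 0.384). Splicing regulators had 22 of 37 entries below 0 in the authors' deposited table, with 1 past the test, and the paraspeckle protein gene Sfpq was at -0.44 (adjusted p = 0.0969). Spliceosome core genes had 26 of 46 entries below 0 and none past the test in the authors' deposited table. Among them Htatsf1, a U2 cofactor, was at -0.37 (adjusted p = 0.103) and Sf1, the branch point binder, at 0.71 in the authors' deposited table (adjusted p = 0.242). Exon junction and decay genes had 15 of 24 entries below 0 and none past the test in the authors' deposited table, with Exosc4 of the exosome at -0.48 and Smg1, the kinase of nonsense-mediated decay, at -0.44 (adjusted p = 0.105 and 0.137), while another entry of Smg1 was at -0.92 (adjusted p = 0.207). Genes of 3′ end processing and export had 15 of 25 entries below 0 and none past the test in the authors' deposited table, with Cstf2 of the cleavage machinery at -0.57 and Thoc1 of the export complex at -0.46 (adjusted p = 0.155 and 0.245).

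**Figure D5:**
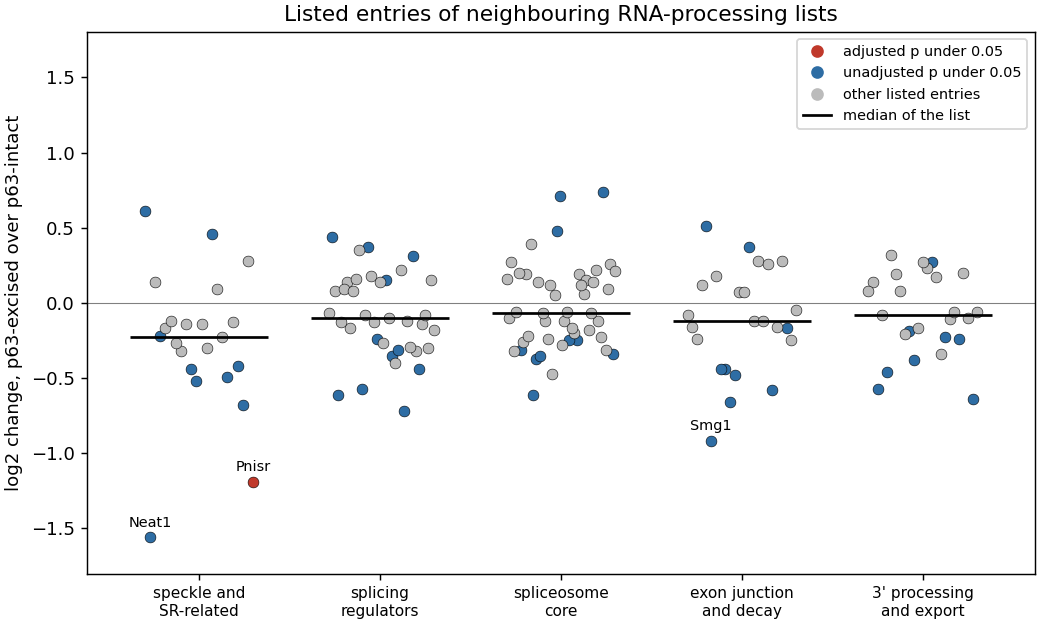
Log2 change (p63-excised over p63-intact, vertical axis) of the listed entries of the 5 neighbouring lists, 1 entry not drawn, from the authors' deposited table, coloured by test as in the plot of members by role, with a bar at each median. Pnisr at -1.19 is past the adjusted threshold, and all 5 medians lie between -0.23 and -0.07.

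Facts of the whole data set bear on these values. Trp63, the excised gene, was at -0.25 in the authors' deposited table (p = 0.0639, adjusted p = 0.751), and the sources used here do not place its probe inside or outside the excised part, so its value does not check the labels. Probes detected above background numbered 11964 to 14520 on p63-excised arrays and 13757 to 16096 on p63-intact arrays (exact two-sided permutation p = 0.2, with 0.1 the smallest that 3 against 3 arrays allow). The p63-excised array 2 had the fewest, and a fit without it cannot be made for named genes. Of 7 skeletal muscle markers all 7 were above 0 in the authors' deposited table, from 0.07 to 1.6, 4 with an unadjusted p under 0.05 and none past the test. All 3 erythroid entries were below 0, from -2.32 to -0.59, as were 3 listed fibroblast entries, from -0.90 to -0.29 in the authors' deposited table, none past the test. The 5 macrophage entries ran from -1.73 to 0.47 in the authors' deposited table, none past the test, and 2 had an unadjusted p under 0.05: an entry of Lyz2 at -1.73 (p = 0.00627) and Adgre1 at -0.27 (p = 0.0319). The 3 neutrophil entries ran from -0.10 to 0.53 and the 2 endothelial entries from -0.42 to 0.28 in the authors' deposited table, none with an unadjusted p under 0.05. Prf1, the perforin of killer lymphocytes, fell in the authors' deposited table, to a log2 change of -3.36 (adjusted p = 0.042), with Cd3e at 0.05 and Nkg7 at -0.13. Keratinocyte markers Krt5, Krt14 and Krt6a were at 0.27, 0.12 and 0.52 in the authors' deposited table (lowest p = 0.212). The part of these cell types, of tumour cell content and of array quality in the members' changes was not tested, and in whole tumours fewer cells of a type and less RNA per cell cannot be told apart.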

How the data were processed

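Illumina bead arrays were used for RNA of 6 tumours, as the labels' protocols state. The authors deposited probe intensity values with detection p-values for 45281 probes, each array at the same mean of 131.42, and a table of processed log2 intensities. Their comparison table holds, per the file headers, 1 row for each gene name with its log2 change, fold, mean log2 level, unadjusted p-value, t and log-odds score. The submitters' processing notes name R 2.12.0. How that comparison was normalized and how probes became genes was not stated there. The direction, p63-excised over p63-intact, rests on the comparison table's name. A check against the probes was weak: of 43 bright entries with log2 changes of at least 1, 42 had a probe within 0.3 of their level and change, but 35 also had one with the sign turned. The minimum was then raised to 2, after that outcome was seen, and gave 9 of 10 against 4 of 10.

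Nothing deposited here pairs probes with genes, and none of those 43 entries had a probe with its log2 values to within 0.005, in neqc values or the deposited value table. Other background corrections and normalizations were tried without a usable match but were not tabulated. Members therefore rest on that table alone. Its p-values were adjusted by the Benjamini-Hochberg method with 45281 tests, an upper bound. SE is the change over t, and 95% intervals use 6.69 degrees of freedom, which tie t to p in the deposited table. Names were updated with a RefSeq gene table (GRCm38.p6): 68 members matched directly, 36 through an older symbol and 1 was kept. The probe test used limma 3.58.1 in R 4.3.3 (neqc, offset 16, detection p under 0.05 on at least 3 arrays, lmFit and eBayes) and was tested on simulated data. Python 3.11.15 with pandas 2.3.3 and scipy 1.17.1 was used for names and intervals.

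Named members are those past an adjusted p of 0.05 and up to 4 per role class with the smallest p, plus, of neighbouring lists, those past it and up to 2 per list. The members and lists were chosen with earlier results of these data known. Alternatives were other numbers of tests, thresholds, filters on dim entries and ways of choosing entries. One entry of a neighbouring list is counted but its result is not reported here.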

Additional observations from a re-analysis of the deposited data

How the results depend on the processing

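The count of members past an adjusted p of 0.05, 4, depended on how the deposited p-values were adjusted. With only the 16381 listed entries taken as tests it was 10, against 2.97% of all entries, and the 6 gained were Hnrnpa2b1, Rbm47, Rbm5, Ogt, Rbfox2 and Tra2a. An adjusted threshold of 0.1 gave 9, and one of 0.01 gave 0, and the share of all entries was not counted at these thresholds. At an unadjusted p under 0.05 there were 30 members, 28.6%, against 19.9% of all listed entries. The count was 4 at mean log2 levels of at least 5.5 and 3 at levels of at least 6, with 1 entry per gene, or with families chosen by name start only. The Srsf11 clone entry is left out under each of these last 3 by their construction. The median log2 change of the members was -0.09 to -0.19 over the alternatives, and the count at an unadjusted p under 0.05 was 20 to 29.

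The authors' normalization cannot be varied for named genes. In the limma test on unnamed probes, 604 of 13727 passed. The count was 344 without background correction, 396 under normexp (offset 50), 50 with scaling to a common median, 203 with no filter on dim probes and 380 in the authors' deposited value table. Scaling to a common median put the median log2 change of tested probes at -0.22, against -0.03, a shift larger than many members' changes. Leaving out 1 array gave 186 (without p63-intact 3) to 631 (without p63-excised 2) probes. Under a replicate block 1324 probes passed, but deviations of same-numbered arrays correlated at 0.339, 0.383 and -0.063, and 4 of 6 arrays correlated best with their own number, so the numbers are not taken to pair the tumours. The cause of these differences was not tested.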

Other observations

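Another 15 entries of the authors' deposited table stand, under clone names or older symbols, for genes of the same families that the choice by name does not reach, and 10 of them were lower and 5 higher in p63-excised tumours. Of all listed entries, 49.0% were lower. None of the 15 passed the adjusted test, where 1.16% of all listed entries did. An unadjusted p under 0.05 was found for 5 of the 15, against 19.9% of all listed entries. Ddx6, a helicase of translational repression and decapping, was at 0.33 in the authors' deposited table (p = 0.00283), and Rbm45, deposited as DRBP1, was at -0.78 (p = 0.00412). Rbm6, a relative of Rbm5, was at -0.29 in the authors' deposited table (p = 0.00399), and Hnrnpl, which binds CA-rich RNA, at -0.21 (p = 0.0447). A second entry of Rbm26 was at -0.22 in the authors' deposited table (p = 0.0121), beside -0.20 (p = 0.394) for the member entry of that gene. These genes were named after their values were seen.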
